A study of Homo sapiens with 21 samples.

Results

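The glucocorticoid receptor gene NR3C1 and 6 genes that the receptor is known to control (KLF15, FKBP5, TSC22D3, PER1, SGK1 and ZBTB16) were followed across all 21 RNA-seq libraries of an EWS/FLI knockdown and rescue experiment in A673 cells. These 7 genes are 7 of the 57820 in the count table and all are among the 30549 that were tested. They were named with earlier results of these data known, and KLF15 was selected on its measured values in this experiment: it was picked because it is higher with the endogenous fusion and lower with DAF and del22. Every KLF15 value in a comparison that involves iLuc, iEF, DAF or del22 is therefore given as a description with no test, and KLF15 is left out of the counts of called members there.

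A673 is an established Ewing sarcoma line, driven by the EWS/FLI fusion of the EWS low-complexity domain to the FLI DNA-binding region, and all groups come from this 1 line. Retroviral shRNA was given on day 1 and cDNA on day 5, and both vectors were selected for until day 16, puromycin (2 µg/mL) for the shRNA and hygromycin (400 µg/mL) for the cDNA. Each of the 7 groups holds 3 libraries, numbered as replicate sets 1, 2 and 3. The control group iLuc carried an shRNA against luciferase with an empty vector and so kept its own fusion, and the group iEF carried the fusion shRNA with an empty vector. The remaining groups carried the same shRNA as iEF with a FLAG-tagged cDNA. WT-EF is the wild-type fusion. In mut9 the EWS domain is shortened to its start and its end. In DAF the tyrosines in the N-terminal degenerate repeats of the EWS domain are changed to alanine, and in DAF-mut9 the repeat tyrosines that mut9 still has are changed. The negative control del22 lacks the EWS domain. Following the study, each condition was compared with iEF, and iLuc against iEF is called endo-EF. The medium held fetal bovine serum, and the sources used here describe no added glucocorticoid.

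The glucocorticoid receptor is a nuclear receptor that waits in the cytoplasm in a complex with HSP90 and its co-chaperones. Once it binds cortisol or a synthetic glucocorticoid it enters the nucleus, where it binds response elements as a dimer and raises or lowers transcription of nearby genes. FKBP5, TSC22D3 (also called GILZ), PER1, SGK1, ZBTB16 and KLF15 are widely used readouts of this activity, and each is also controlled by other signals.

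The receptor's usual binding element is an inverted repeat of a 6-base half-site with a 3-base spacer. The perfect repeat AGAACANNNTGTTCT was searched on both strands in windows of 10 kb either side of the annotated 5′ end of each protein-coding gene in GRCh37. It occurred in 0.314% of 20076 windows and in none of the 7 members. The looser form GNACANNNTGTNC, which also matches every perfect repeat, occurred in 22.9% of the windows and in those of 4 members. The 5 matches are shown because they are the closest receptor-type elements found in these windows. Counted from the nearest RefSeq start instead, the PER1 match lies at -2069 bases, which is upstream of that start, and the TSC22D3 match at 7930 bases. Below, distances are from the annotated 5′ end. The matches are written on the gene's strand in capitals, and all of these genes lie on the minus strand:
KLF15, intron, 1415 bases downstream of the 5′ end, chr3:126074816-126074844: tgtgcccgGAACAGCGTGTCCcctccccc
FKBP5, 3448 bases upstream, chr6:35699788-35699816: ggcgacggGCACAGGATGTTCtttcgctc
FKBP5, intron, 457 bases downstream, chr6:35695883-35695911: cccgctcgGGACATTGTGTTCcagccccg
TSC22D3, intron, 9485 bases downstream, chrX:107011067-107011095: atggcccaGAACATACTGTGCtgtcccaa
PER1, intron, 2033 bases downstream, chr17:8057771-8057799: agccaagaGAACATGATGTTCccaagtgc
NR3C1, SGK1 and ZBTB16 had no match of either form in these windows, which says only that these letters do not occur there. The windows were placed only at the annotated 5′ end of each gene. RefSeq promoters outside them include those of SGK1 at chr6:134495955-134496254, NR3C1 at chr5:142784871-142785170, TSC22D3 at chrX:106959689-106959988 and FKBP5 at chr6:35656643-35656942. The wider surroundings of such promoters were not searched. The fusion is known to bind both single ETS-type sites with a GGAA core and GGAA repeats, so runs of at least 4 GGAA on either strand were also searched. Such a run occurred in 7.41% of windows, and among the members in that of TSC22D3 alone. It holds 6 copies, read as TTCC on the gene's strand. It lies 7697 bases upstream of the annotated 5′ end and at -9051 bases from the nearest RefSeq start:
TSC22D3, chrX:107028238-107028277, run in capitals: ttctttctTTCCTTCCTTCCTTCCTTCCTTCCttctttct

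Promoter sequences running from 250 bases before to 50 bases after the start were taken from RefSeq, in a table that held 18 entries for 6 of the members, and each was placed in GRCh37 by exact match. At least 1 GGAA was found in 95.5% of all 35116 promoter entries, but not in that of KLF15, nor in 2 of the 4 TSC22D3 and 1 of the 3 SGK1 entries. The KLF15 promoter is shown because KLF15 has the widest range of the members. It holds the E-box CACGTG, in capitals, which 7.26% of promoter entries hold on either strand and which among the members also occurs in the PER1 entry and in 1 of the 2 FKBP5 entries:
KLF15, chr3:126076202-126076501, minus strand: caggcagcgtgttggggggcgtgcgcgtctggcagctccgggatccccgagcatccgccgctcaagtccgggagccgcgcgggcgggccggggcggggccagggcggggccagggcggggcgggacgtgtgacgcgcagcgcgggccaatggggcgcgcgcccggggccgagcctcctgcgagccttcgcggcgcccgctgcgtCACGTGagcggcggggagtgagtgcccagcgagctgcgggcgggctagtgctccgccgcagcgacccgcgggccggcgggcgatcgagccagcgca

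Libraries held 32.9 to 46.2 M counts, so that 1 unit of CPM (the count divided by the TMM-adjusted library size in M) stood for 32 to 45.3 counts. FLI1, whose exons are part of the fusion transcript, was 61.3, 60.6 and 89.1 CPM in iLuc and 20.8, 20.02 and 21.1 CPM in iEF, a 3.37-fold difference (adjusted p = 1.33e-09). FLI1 was higher than in iEF in mut9, DAF, DAF-mut9 and del22 by 0.57 to 1.25 on the log2 scale, and by 0.24 ± 0.13 (SE, adjusted p = 0.196) in WT-EF, whose construct level is not separable from the residual endogenous transcript here. Of 8 Ewing sarcoma markers, 7 were called higher in endo-EF, beside 18.7% of all genes. The markers include NR0B1 and FCGRT, which the study describes as activated by the fusion. CD99 was near 0 in all libraries (mean 0.0486 CPM), and whether its pseudoautosomal copy took its reads was not tested. The markers of blood, epithelium, endothelium, liver and muscle that were tested averaged at most 0.77 CPM. All libraries come from bulk RNA, so fewer cells of a kind and less RNA per cell cannot be told apart.

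Depletion of EWS/FLI moved the members in different directions. NR3C1 and SGK1, a kinase that controls ion channels and cell survival, were lower with the endogenous fusion than without it, while TSC22D3, a leucine zipper protein that mediates anti-inflammatory effects of glucocorticoids, and ZBTB16, the zinc finger repressor PLZF, were higher. FKBP5, an HSP90 co-chaperone that damps the receptor's own signal, and PER1, a repressor of the circadian clock, did not pass the test. Counted over the 6 members other than KLF15, endo-EF thus called 2 higher, where 18.7% of all genes tested were called higher, and 2 lower, where 22.4% of all genes were called lower. WT-EF called 1 higher (11.4% of all genes) and 2 lower (16.9%). With mut9 there was 1 call in each direction, against 6.22% of all genes higher and 8.33% lower. DAF called 1 of the 6 higher (3.41%) and none lower (4.02%), DAF-mut9 likewise 1 higher (1.26%) and none lower (2.14%), and del22 also 1 higher (0.881%) and none lower (1.79%). In these last 3 conditions the 1 call was ZBTB16. By DESeq2 the 6 conditions had 4, 3, 2, 1, 1 and 1 calls in all, as by edgeR, and by limma on the authors' ComBat-adjusted values the endo-EF count was 3, without TSC22D3, and the others were the same. The ZBTB16 calls in DAF-mut9 and del22 were both lost without iEF replicate 3. At an unadjusted p below 0.05 there was 1 member in DAF and in DAF-mut9 and 2 in del22, the second being PER1. These 6 comparisons share the iEF libraries, so their values are set side by side and not correlated.

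**Figure D1:**
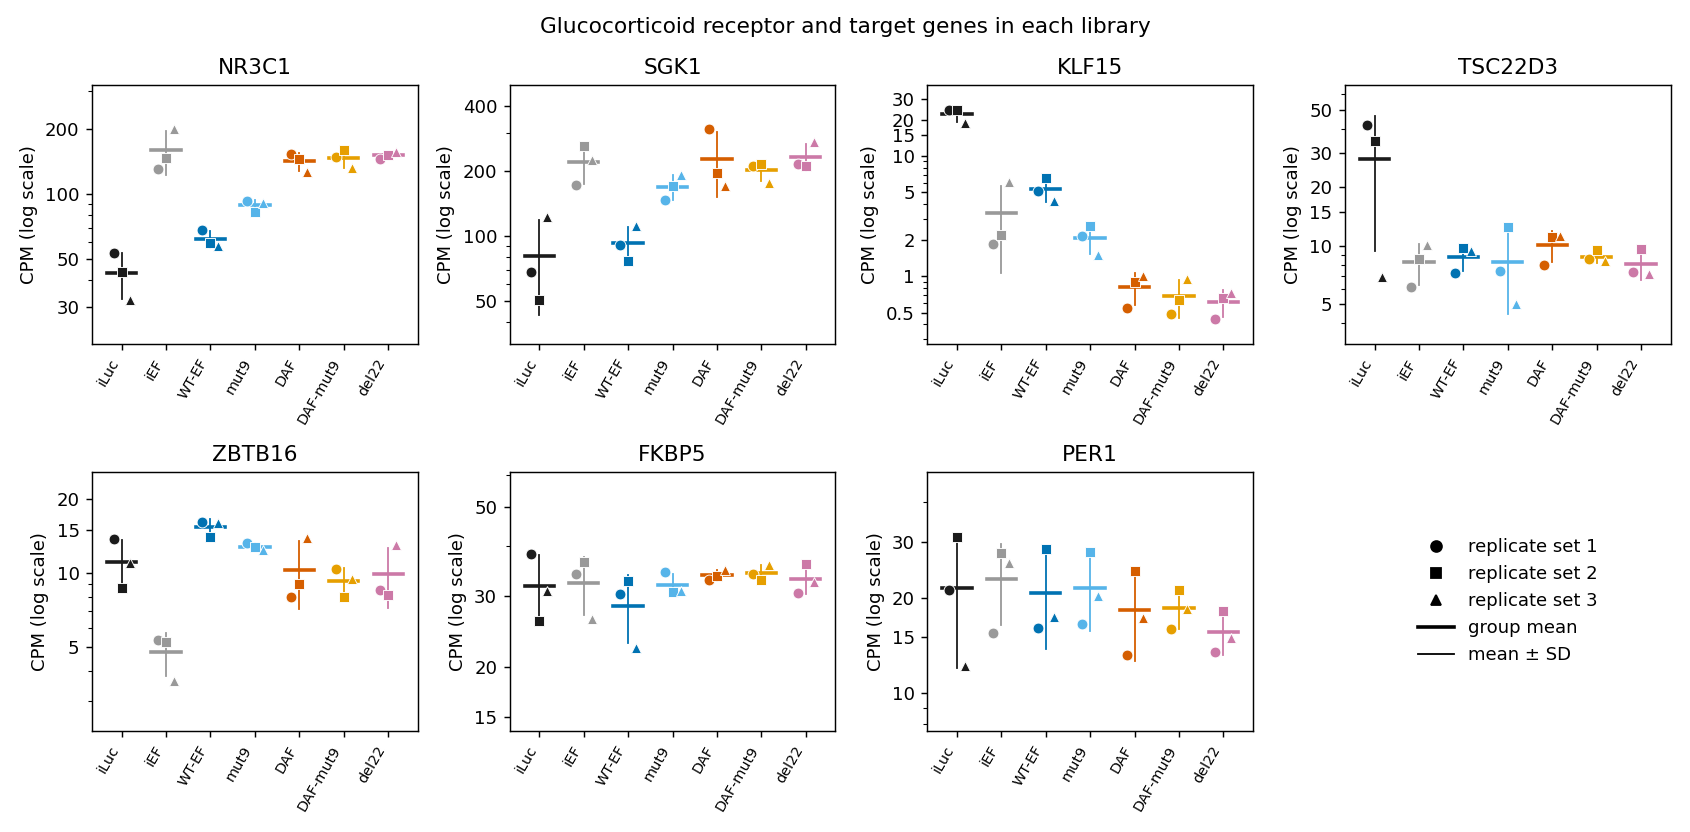
CPM on a log scale of each member in the 7 groups, where points are libraries shaped by replicate set, horizontal bars are group means and vertical lines are 1 SD either side (n = 3). NR3C1 and SGK1 are low in iLuc and WT-EF, KLF15 spans from 0.44 CPM in a del22 library to 24.3 CPM in an iLuc library, and ZBTB16 is lowest in iEF.

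**Figure D2:**
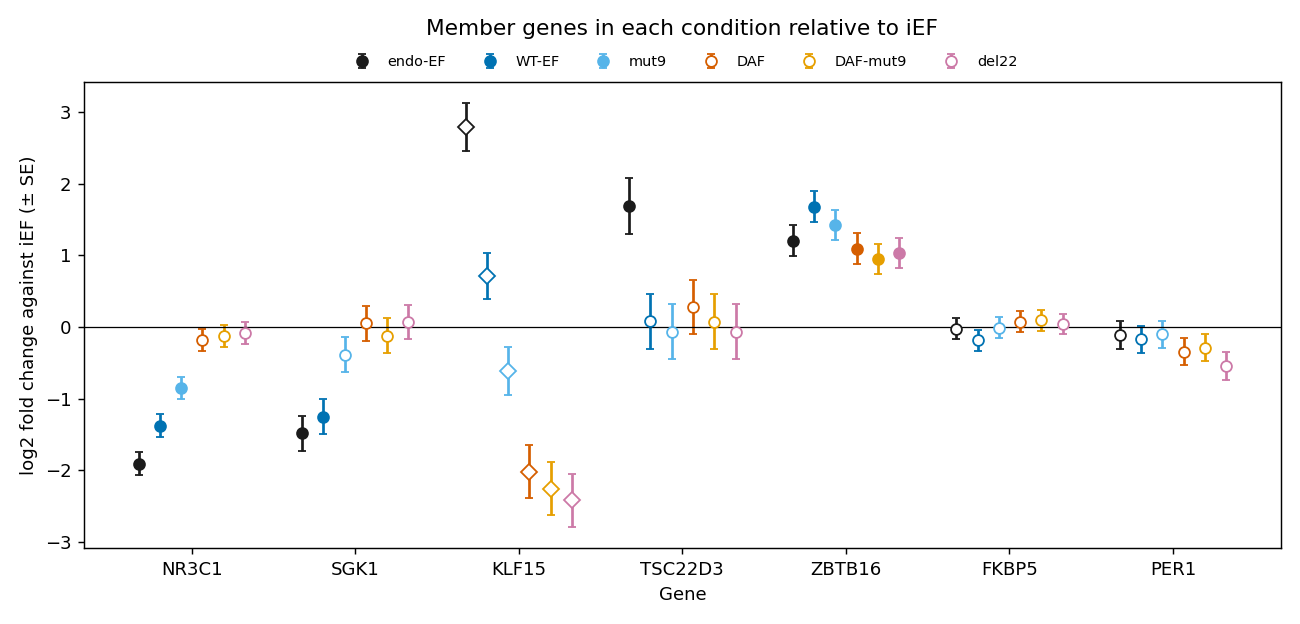
Log2 fold change against iEF with its SE from the edgeR fit, by gene and condition. Filled circles passed an adjusted p of 0.05, open circles did not, and the open diamonds of KLF15 were not tested because KLF15 was chosen on these comparisons.

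NR3C1 (chr5:142657496-142815077, minus strand) encodes the receptor. Its level was 53.2, 43.4 and 32.3 CPM in iLuc and 131, 147 and 201 CPM in iEF. WT-EF brought it to 68.4, 59.6 and 57.6 CPM and mut9 to 93.1, 83.0 and 90.9 CPM. All 3 iEF libraries lay above every library of these 3 groups, and the 3 iLuc, 3 WT-EF and 3 mut9 libraries also did not overlap among themselves. Against iEF, NR3C1 was 3.76-fold lower in endo-EF (log2 fold change -1.91 ± 0.16 SE, adjusted p = 5.79e-09), 2.6-fold lower in WT-EF (adjusted p = 1.14e-06) and 1.8-fold lower in mut9 (adjusted p = 0.000664), each in all 3 replicate sets. DAF libraries held 153, 146 and 127 CPM, DAF-mut9 libraries 149, 160 and 132 CPM, and del22 libraries 146, 152 and 157 CPM. These 3 groups overlapped iEF, with log2 differences of -0.18 ± 0.16, -0.13 ± 0.16 and -0.08 ± 0.16 that did not pass the test.

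Ordered by group mean, NR3C1 ran from iLuc (43.0 ± 10.5 CPM, SD, n = 3) through WT-EF (61.9 ± 5.71), mut9 (89.0 ± 5.35), DAF (142 ± 13.7), DAF-mut9 (147 ± 14.2) and del22 (152 ± 5.2) to iEF (160 ± 36.5). Neighbours at the low end were separate in their libraries. WT-EF exceeded iLuc by 0.53 ± 0.16 on the log2 scale (adjusted p = 0.0217). That call was lost when iLuc replicate 2, iLuc replicate 3 or WT-EF replicate 1 was left out, where the values were 0.57, 0.36 and 0.49. mut9 exceeded WT-EF by 0.53 ± 0.16, which missed the threshold of the edgeR fit (adjusted p = 0.0511). It was called by DESeq2 (0.51), by limma on ComBat-adjusted values (0.47), with no low-count filter (0.49) and when only the groups compared were fitted (0.49), and the adjusted p over all alternatives ran from 0.000101 to 0.242. DAF exceeded mut9 by 0.67 ± 0.16 (adjusted p = 0.0108), a call that was lost without mut9 replicate 2 or DAF replicate 2 (0.64 in both). The upper 4 groups overlapped, and DAF-mut9 against DAF, DAF-mut9 against del22 and del22 against iEF did not pass the test. DAF and del22 exceeded WT-EF by 1.20 ± 0.16 (adjusted p = 8.45e-06) and 1.30 ± 0.16 (adjusted p = 2.95e-06), and DAF-mut9 exceeded mut9 by 0.72 ± 0.16 (adjusted p = 0.00393). Whether the tyrosine changes moved NR3C1 to a different extent in the long and the short EWS domain was examined by an interaction term. The tyrosines changed are not the same set in DAF and DAF-mut9, so the term does not isolate EWS length. It was -0.48 ± 0.22 and did not pass (adjusted p = 0.325). It passed only when the 4 groups involved were fitted alone (-0.48).

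SGK1 (chr6:134490386-134639250, minus strand) followed an order much like that of the receptor. Its libraries held 68.5, 50.8 and 122.9 CPM in iLuc, 172, 262 and 225 CPM in iEF, and 91.4, 77.0 and 112 CPM in WT-EF. The highest iLuc library was below the lowest iEF library, and so was the highest WT-EF library. SGK1 was 2.8-fold lower in endo-EF (-1.49 ± 0.25, adjusted p = 5.43e-05) and 2.38-fold lower in WT-EF (-1.25 ± 0.25, adjusted p = 0.000541). In mut9 the libraries held 147, 171 and 191 CPM and overlapped iEF (-0.39 ± 0.24, adjusted p = 0.354). The libraries of DAF (312, 196 and 171 CPM), DAF-mut9 (210, 216 and 177 CPM) and del22 (216, 212 and 272 CPM) overlapped iEF too, and no difference passed the test.

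By group mean, the order of SGK1 was iLuc (80.7 ± 37.6 CPM), WT-EF (93.4 ± 17.4), mut9 (169 ± 21.9), DAF-mut9 (201 ± 21.3), iEF (220 ± 45), DAF (226 ± 75.3) and del22 (233 ± 33.3). The only neighbours that were called different were WT-EF and mut9, at 0.87 ± 0.25 on the log2 scale (adjusted p = 0.0372). That call was lost without any 1 of the 6 libraries, with values of 0.75 to 0.93, and it was also lost without the replicate block (0.86) and with edgeR's filterByExpr filter on low counts (0.84). SGK1 was 2.47-fold higher in DAF than in WT-EF (adjusted p = 0.000454) and 2.5-fold higher in del22 than in WT-EF (adjusted p = 0.000351), with no overlap in either case. The interaction term was -1.04 ± 0.34 (adjusted p = 0.116). It was called without DAF replicate 3 (-1.26), with no low-count filter (-1.02) and when only the 4 groups involved were fitted (-1.02).

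**Figure D3:**
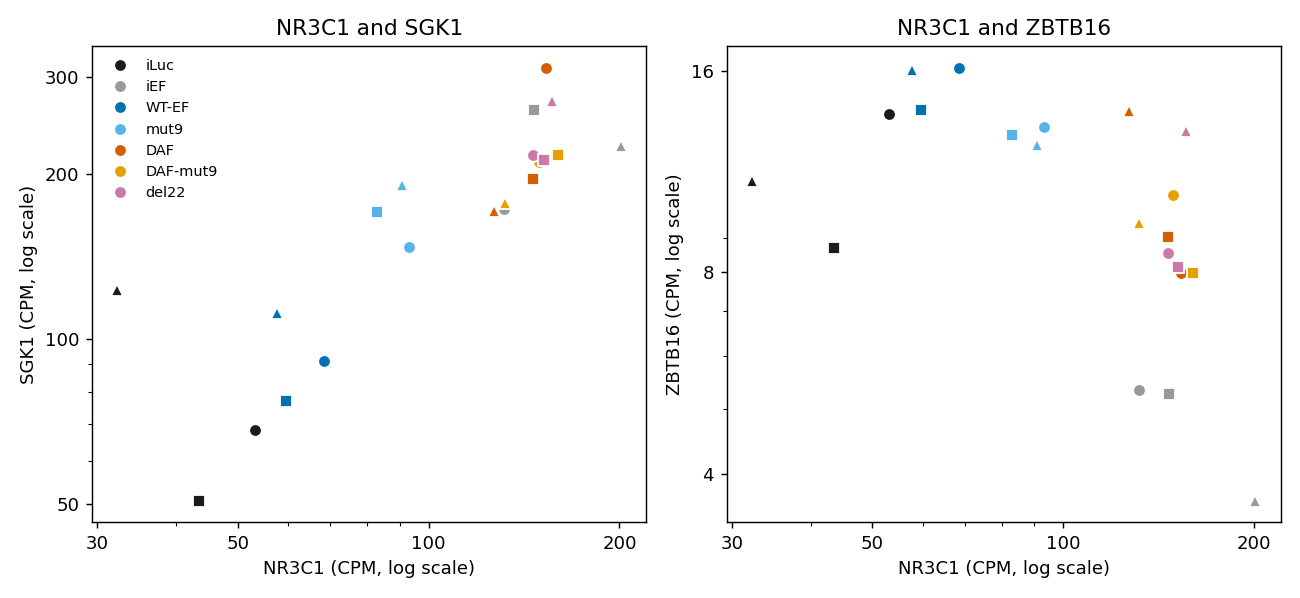
CPM of SGK1 (left) and ZBTB16 (right) against CPM of NR3C1 in the same library, both axes on a log scale, with colours for groups and shapes for replicate sets (circle 1, square 2, triangle 3). The iLuc and WT-EF libraries lie at the low NR3C1 and low SGK1 end, and the 3 iEF libraries lie below all others for ZBTB16.

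Across the 21 libraries, with replicate set means removed, log2 CPM of NR3C1 and SGK1 had a Pearson correlation of 0.86 and that of NR3C1 and ZBTB16 one of -0.56. KLF15 had -0.82 with NR3C1 and -0.84 with SGK1. FKBP5 and PER1 had coefficients with NR3C1 of 0.31 and -0.09. These are descriptions, since the libraries share groups and sets, the groups form separate clusters, and KLF15 was chosen on its levels in 4 of these groups, which its coefficients use.

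KLF15 (chr3:126061478-126076251, minus strand), a zinc finger factor that drives amino acid breakdown in muscle and liver in response to glucocorticoids, had the widest range of levels. Its promoter and the imperfect element in its intron are printed above. It held 24.0, 24.3 and 18.6 CPM in iLuc and 1.87, 2.22 and 6.03 CPM in iEF. The third iEF library was high for KLF15, and the iLuc libraries lay above all others. WT-EF libraries held 5.17, 6.56 and 4.20 CPM and mut9 libraries 2.15, 2.63 and 1.51 CPM, both overlapping iEF. DAF libraries held 0.546, 0.904 and 1.00 CPM, DAF-mut9 libraries 0.488, 0.631 and 0.949 CPM, and del22 libraries 0.439, 0.665 and 0.732 CPM. These 9 libraries all lay below the 3 iEF libraries, in counts of 16 to 34.

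As described differences against iEF, KLF15 was 2.80 ± 0.33 higher on the log2 scale in endo-EF and 2.02 ± 0.37, 2.26 ± 0.37 and 2.42 ± 0.37 lower in DAF, DAF-mut9 and del22. WT-EF was 0.71 ± 0.32 higher and mut9 0.61 ± 0.33 lower. Leaving out iEF replicate 3 turned the mut9 value to 0.05 higher and made the other values 3.46 (endo-EF), 1.39 (WT-EF), -1.30 (DAF), -1.53 (DAF-mut9) and -1.71 (del22). The selection of KLF15 used endo-EF, DAF and del22, so the direction of those 3 values is fixed by the choice. Comparisons of WT-EF, mut9 and DAF-mut9 among themselves were not part of the selection, although the choice of a gene with such a pattern was made with these libraries known. There, KLF15 was 2.51-fold lower in mut9 than in WT-EF (adjusted p = 0.0158) and 3.13-fold lower in DAF-mut9 than in mut9 (adjusted p = 0.00592), each in all 3 replicate sets and with no overlap. The first call was lost without WT-EF replicate 1 (-1.23), WT-EF replicate 2 (-1.20) or mut9 replicate 3 (-1.06). Both were lost with limma on ComBat-adjusted values (-1.18 and -1.48).

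TSC22D3 (chrX:106956451-107020572, minus strand) held 42.0, 34.7 and 6.94 CPM in iLuc and 6.14, 8.54 and 10.1 CPM in iEF. In iLuc, replicate 3 therefore lay within the range of iEF while replicates 1 and 2 were far above it. The fitted difference in endo-EF was 1.69 ± 0.39 on the log2 scale (3.22-fold, adjusted p = 0.00152), and it went the other way in 1 of the 3 replicate sets. It was 1.05 without iLuc replicate 1 and 2.24 without iLuc replicate 3, and limma on ComBat-adjusted values gave 1.21 and did not call it. In the 5 rescue groups TSC22D3 lay between 5.00 and 12.4 CPM, all groups overlapped iEF, and none of the 5 differences, which ran from -0.07 to 0.28, passed the test. WT-EF was below iLuc by 1.61 ± 0.39 (adjusted p = 0.0055). That call was lost without iLuc replicate 1 (-0.95) and with ComBat-adjusted values (-1.12). The run of 6 GGAA copies shown above lies upstream of this gene. Exons of TSC22D3 share 71 bases with NCBP2L on the opposite strand, and the strand setting of the counting is not given in the sources used here.

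ZBTB16 (chr11:113929763-114127487, plus strand) was lowest in iEF, at 5.34, 5.26 and 3.65 CPM. Every one of the other 18 libraries exceeded these. They held 13.8, 8.69 and 10.9 CPM in iLuc, 16.2, 14.0 and 16.0 CPM in WT-EF, and 13.2, 12.8 and 12.4 CPM in mut9. The tyrosine mutants and the negative control also stood above iEF, with 7.97, 9.04 and 13.9 CPM in DAF, 10.4, 7.98 and 9.49 CPM in DAF-mut9, and 8.56, 8.16 and 13 CPM in del22. ZBTB16 was thus called higher in all 6 conditions, by 2.31-fold in endo-EF (adjusted p = 9.39e-05), 3.21-fold in WT-EF (adjusted p = 3.71e-06) and 2.68-fold in mut9 (adjusted p = 6.96e-05). The values were 2.14-fold in DAF (adjusted p = 0.0026), 1.94-fold in DAF-mut9 (adjusted p = 0.0159) and 2.05-fold in del22 (adjusted p = 0.0119). The DAF-mut9 call was lost without iEF replicate 3 (0.73 on the log2 scale), without DAF-mut9 replicate 1 or 2 (0.87 and 1.00) and without replicate set 3 (0.78). The del22 call was lost without iEF replicate 3 (0.80), del22 replicate 3 (0.83) and replicate set 3 (0.66).

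In order of group mean, ZBTB16 ran from iEF (4.75 ± 0.955 CPM) through DAF-mut9 (9.3 ± 1.23), del22 (9.91 ± 2.69), DAF (10.3 ± 3.17), iLuc (11.1 ± 2.55) and mut9 (12.8 ± 0.406) to WT-EF (15.4 ± 1.24). Of the neighbours above iEF, DAF-mut9 and del22, del22 and DAF, and mut9 and WT-EF did not differ by the test, although the mut9 and WT-EF libraries did not overlap. DAF against iLuc and iLuc against mut9 were not fitted as comparisons. Over the wider steps, WT-EF exceeded DAF by 1.5-fold (adjusted p = 0.0423) and del22 by 1.56-fold (adjusted p = 0.0246), with no overlap. The first was lost without any 1 WT-EF library or without DAF replicate 1 or 2 (-0.39 to -0.63 on the log2 scale for DAF minus WT-EF), and the second without WT-EF replicate 1 or 2 or del22 replicate 1 or 2 (-0.52 to -0.66). Exons of ZBTB16 share 392 bases with genes on the opposite strand, so part of its count could not be assigned with certainty. The table of promoters held no ZBTB16 entry.

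FKBP5 (chr6:35541362-35696360, minus strand) lay between 22.2 and 38.2 CPM in all 21 libraries. Its values were 38.2, 25.99 and 31.0 CPM in iLuc and 34.1, 36.5 and 26.3 CPM in iEF, with 30.3, 32.7 and 22.2 CPM in WT-EF. The 3 groups overlapped, and so did mut9, DAF, DAF-mut9 and del22 with iEF. The log2 differences from iEF ran from -0.18 to 0.10 with an SE of 0.15, and FKBP5 was not called in any of the 16 comparisons. This is the member with 2 of the imperfect receptor elements printed above.

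PER1 (chr17:8043790-8059824, minus strand) overlapped iEF in every group. It held 21.1, 31.1 and 12.2 CPM in iLuc and 15.5, 27.5 and 25.7 CPM in iEF. The lowest group mean was that of del22, whose libraries held 13.5, 18.1 and 14.97 CPM. The difference of del22 from iEF was -0.54 ± 0.19 and did not pass (adjusted p = 0.159, or 0.0101 before adjustment), although it was called with no low-count filter (-0.56). PER1 was not called by the edgeR fit in the other 15 comparisons. Of these, del22 against WT-EF (-0.37) was called without replicate set 3 (-0.43) and when only the groups compared were fitted (-0.40). Leaving out 1 library at a time, del22 minus iEF ran from -0.345 without iEF replicate 3 to -0.68 without iEF replicate 1. Its exons share 30 bases with another annotated gene on the same strand.

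Direct comparisons between conditions gave few further calls. Of the 6 members other than KLF15, 2 were called between WT-EF and iLuc (NR3C1 and TSC22D3), where 18.3% of all genes were called. Between DAF and WT-EF 3 were called (NR3C1 and SGK1 higher, ZBTB16 lower), beside 24.9% of all genes, and the same 3 were called in the same directions between del22 and WT-EF, beside 25.2%. These 2 comparisons share the WT-EF libraries. FLI1 was also higher than in WT-EF, by 0.60 on the log2 scale in DAF (adjusted p = 0.00173) and by 1.00 in del22 (adjusted p = 7.38e-06). Whether construct level bears on the member differences was not tested. For DAF against mut9 the count was 1 of 6 (NR3C1), with 6.61% of all genes called. Where KLF15 could be tested as well, 2 of 7 members were called between mut9 and WT-EF (KLF15 and SGK1), beside 6.15% of all genes, and 2 of 7 between DAF-mut9 and mut9 (NR3C1 and KLF15), beside 9.83%. No member was called by edgeR, DESeq2 or limma between DAF-mut9 and DAF (0.946% of all genes by edgeR), between DAF and del22 (0.972%) or between DAF-mut9 and del22 (0%), and none had an unadjusted p below 0.05 in the edgeR fit. In the last of these comparisons 671 of 30549 genes had an unadjusted p below 0.05, and DESeq2 and limma also called 0 genes. The interaction of tyrosine change and EWS length called 0 of 6 members by edgeR, DESeq2 and limma, with 2 at an unadjusted p below 0.05 (NR3C1 and SGK1) and 3.33% of all genes called by edgeR.

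Between genes, levels were compared per kb of annotated exon. Averaged over all libraries, SGK1 (17.6 CPM per kb) and NR3C1 (12.4) were the most abundant members. FKBP5 (3.03), PER1 (2.83), TSC22D3 (2.31) and KLF15 (1.79) followed, and ZBTB16 (0.635) was the least abundant. Exon lengths were taken over all annotated transcripts, and the transcripts in use in A673 cells were not determined.

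The wider set of genes that glucocorticoids induce was mostly lower where the fusion was active. Of 35 tested induced targets other than the members, 23 were called lower and 4 higher in endo-EF (median log2 fold change -1.76, against 0.01 over all genes). With the 3 genes that were at or under 3 counts per library in 1 group set to that floor, the median was -1.57. Over all genes, 22.4% were called lower and 18.7% higher in endo-EF. WT-EF called 25 lower and 3 higher (median -1.10), beside 16.9% and 11.4% of all genes. With mut9 17 were lower and 4 higher (median -0.49), beside 8.33% and 6.22%. The counts were 8 lower and 3 higher in DAF, 5 and 2 in DAF-mut9, and 6 and 2 in del22, with medians of -0.20, -0.15 and -0.39. In these 3 conditions 4.02%, 2.14% and 1.79% of all genes were called lower, and 3.41%, 1.26% and 0.881% higher. The list counts in DAF, DAF-mut9 and del22 rested on single libraries. Calls in both directions fell from 11 to 6 in DAF without iEF replicate 3 or DAF replicate 1. In DAF-mut9 they fell from 7 to 1, 2 and 3 without DAF-mut9 replicates 1, 2 and 3 and to 2 without iEF replicate 3. In del22 they fell from 8 to 2, 5 and 5 without del22 replicates 3, 1 and 2 and to 3 without iEF replicate 3. Those that were lower with the endogenous fusion included DUSP1, a phosphatase that switches off MAP kinases (-1.34), the metallothionein MT2A (-2.70) and KLF9, a close relative of KLF15 (-2.38). BIRC3 fell furthest among genes above the floor. It held 530, 1392 and 1887 CPM in iEF, 6.32, 6.23 and 5.14 CPM in iLuc and 32.0, 31.6 and 18.1 CPM in WT-EF. BIRC3 and the likewise lower TNFAIP3 (-6.14) and NFKBIA (-2.35) are also well-known targets of NF-κB. IGFBP1, a liver-type binding protein of insulin-like growth factors, held 3, 0 and 0 counts in iLuc and 415, 314 and 310 counts in iEF.

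Among the 4 induced targets called higher in endo-EF were METTL7A (2.50 ± 0.33, adjusted p = 2.35e-06) and IRS2, an adaptor of the insulin receptor (1.70 ± 0.21, adjusted p = 1.41e-06). METTL7A shares 769 of its 4076 exon bases with another annotated gene on the same strand. IRS2 held 130, 177 and 123.2 CPM in iLuc, 36.1, 30.4 and 68.9 CPM in iEF and 163, 158 and 163 CPM in WT-EF. IRS2 was also called in mut9 (1.62) and not in DAF (0.42), DAF-mut9 (-0.29) or del22 (-0.31). THBD, thrombomodulin, moved both ways. It was 0.128, 0.155 and 0.0752 CPM in iLuc and 12.2, 5.98 and 18.4 CPM in iEF, while DAF, DAF-mut9 and del22 called it higher than iEF by 1.42, 1.87 and 1.72 on the log2 scale. The DAF call was lost without DAF replicate 1 and the del22 call without del22 replicate 3.

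Inflammatory genes that glucocorticoids repress did not go the opposite way to the induced genes. All 10 that were tested were called lower in endo-EF (median -7.01) and in WT-EF (median -4.30), and 6 were called lower in mut9 (median -2.21). DAF, DAF-mut9 and del22 each called 4 lower, and the edgeR fit called none higher in any condition. With no low-count filter, 2 were called higher in DAF and 1 each in DAF-mut9 and del22. Without replicate set 3, 10, 10, 5, 2, 3 and 2 were called lower in these 6 conditions. CSF2 held 4, 4 and 4 counts in the iLuc libraries and 1231, 3468 and 2212 in the iEF libraries. The cytokine IL11 held 0.437, 0.508 and 0.401 CPM in iLuc, 108, 113 and 205 CPM in iEF and 37.9, 36.9 and 27.1 CPM in del22, and it was called lower in every condition. The chemokine gene CCL2 was lower in endo-EF (-7.45) and WT-EF (-4.86) and was not called in mut9 (-0.56), DAF (0.53), DAF-mut9 (-0.31) or del22 (-0.35). Both lists were drawn up with earlier results of these data known. The counts of both lists stand beside the shares of all genes given for the induced list. Those called lower were 22.4% in endo-EF, 16.9% in WT-EF, 8.33% in mut9, 4.02% in DAF, 2.14% in DAF-mut9 and 1.79% in del22. Nothing particular to the lists was tested.

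**Figure D4:**
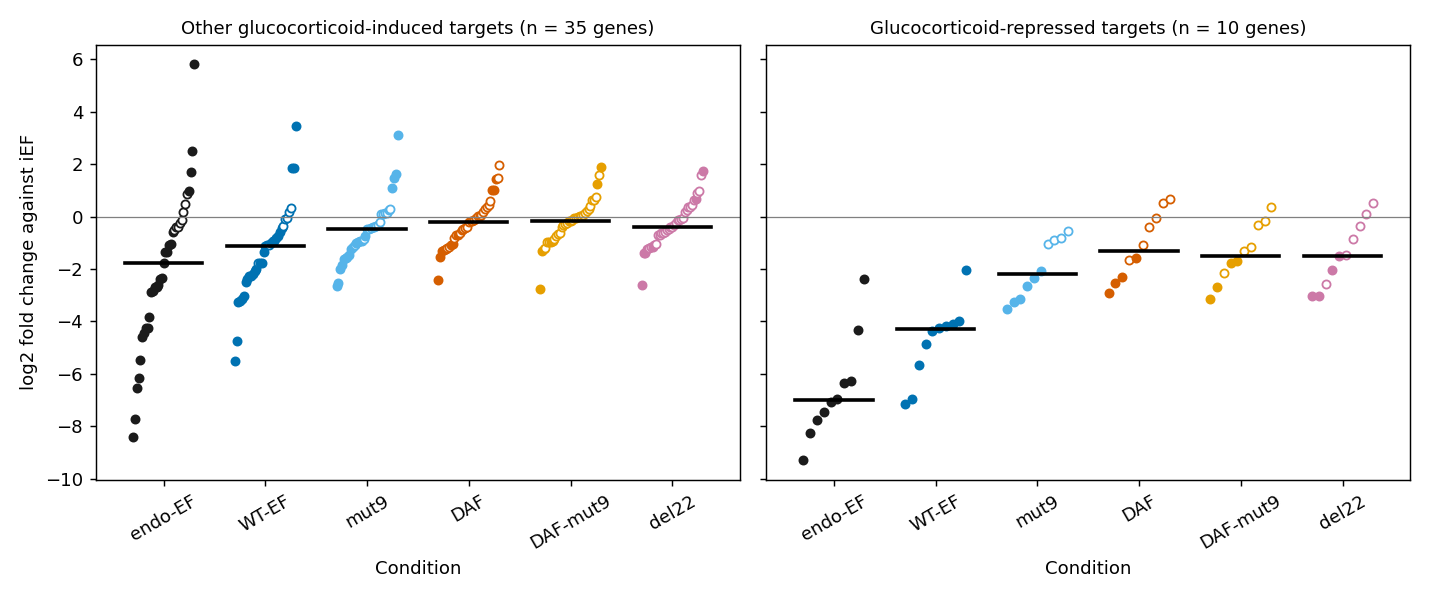
Log2 fold change against iEF of each tested gene in the lists of other induced targets (left, 35 genes) and repressed targets (right, 10 genes), sorted within each condition. Filled points passed an adjusted p of 0.05 and horizontal bars are medians, which move from -1.76 to -0.39 and from -7.01 to -1.49 between endo-EF and del22.

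Around the receptor itself, the gene for the mineralocorticoid receptor had the largest change in endo-EF among the chaperones and related receptors. Of these 10 genes, 1 was called higher and 4 lower in endo-EF. This count and those of the groups that follow stand beside 18.7% of all genes called higher and 22.4% called lower in endo-EF, and none was tested against them. NR3C2, which encodes the mineralocorticoid receptor and also responds to cortisol, held 5.29, 10.5 and 4.43 CPM in iLuc and 30.5, 13.3 and 44.2 CPM in iEF (-1.998 ± 0.333, adjusted p = 4.96e-05). The WT-EF value was -0.18 and did not pass (adjusted p = 0.732). DAF-mut9 held 65.6, 61.5 and 66.0 CPM of NR3C2 and del22 51.1, 57.9 and 101 CPM, and both were called higher than iEF (1.20 and 1.27). The DAF-mut9 call was lost in 7 of 14 alternatives, among them without any 1 DAF-mut9 library and without iEF replicate 1 or 2. The del22 call was lost in 6 of 14, among them without iEF replicate 2, del22 replicate 2 or 3 and replicate set 3. FKBP4, the co-chaperone that promotes receptor transport and opposes FKBP5, was higher in endo-EF (0.84, adjusted p = 0.000781), and BAG1 and DNAJB1 were lower (-1.14 and -1.11). The HSP90 genes HSP90AA1 (0.06) and HSP90AB1 (-0.28) were not called. Of 11 coregulators, 3 were called higher and 1 lower in endo-EF. The coactivators NCOA1 (0.90) and NCOA2 (0.54) and the remodeller SMARCA4 (0.42) were higher, and NCOA3 (-0.30) was lower, a call lost in 7 of 14 alternatives. SMARCA4 was not called without iEF replicate 3. NCOA1 and NCOA2 were also called higher in WT-EF (0.97 and 0.44) and in mut9 (0.91 and 0.31). NCOA3 was called lower in WT-EF (-0.44) and higher in DAF (0.355, adjusted p = 0.0457). Over the alternatives, the coregulators called higher were as few as 1 in mut9 and 0 in DAF.

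Of 5 steroid enzymes and the efflux transporter ABCB1, which exports glucocorticoids, 2 were called higher and 3 lower in endo-EF. ABCB1 was among the lower, with 2, 9 and 7 counts in iLuc and 350, 29 and 767 counts in iEF. SRD5A3, a steroid reductase family member, was higher in endo-EF (1.95), WT-EF (1.17), mut9 (0.84) and DAF (0.71, adjusted p = 0.0131). Of its 7702 exon bases, 1787 are shared with other annotated genes on the same strand and 1082 on the opposite strand. The DAF call was not kept in every alternative. HSD11B1, which regenerates cortisol, and HSD11B2, which inactivates it, were both scarce, at no more than 1.78 and 0.451 CPM in any library, and the call of HSD11B2 as higher in endo-EF (1.22) was lost in 5 of 14 alternatives. H6PD, which supplies the cofactor of HSD11B1, was lower in WT-EF (-1.39). It was also called lower in endo-EF (-0.64), but not without iLuc replicate 3 or iEF replicate 2, and in mut9 (-0.75), but not without iEF replicate 2 or mut9 replicate 2. The genes downstream of KLF15 and SGK1 split 4 higher and 6 lower of 11 in endo-EF. BCAT2, which starts branched-chain amino acid breakdown and is a KLF15 target, held 16.8, 15.7 and 12.7 CPM in iLuc and 4.46, 6.91 and 5.24 CPM in iEF (1.46, adjusted p = 7.91e-06). FBXO32, from the same list, went the other way and was lower in endo-EF (-2.17, adjusted p = 0.000667). NDRG1, a substrate of SGK1, was 9.35, 9.24 and 4.71 CPM in iLuc and 156, 101 and 146 CPM in iEF (-4.10, adjusted p = 5.22e-12). NEDD4L, a ubiquitin ligase that SGK1 phosphorylates, was called lower than iEF in all 6 conditions, by -1.58 in endo-EF to -0.91 in del22. The del22 call was lost in 6 of 14 alternatives, among them without any 1 del22 library or iEF replicate 3, and the DAF-mut9 call (-1.10) was lost without iEF replicate 3.

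The genes whose levels most resembled each member were ranked by Pearson correlation of log2 CPM over the 21 libraries, after removal of replicate set means, among 10581 genes with a symbol and a mean of at least 5 CPM. For NR3C1 these were NFATC2 (0.987), FRMD6 (0.985) and COPA (0.983). NFATC2 ran from 3.24 ± 1.15 CPM in iLuc to 46.5 ± 23 CPM in iEF. For KLF15 they were UBXN2B (0.97), PELI2 (0.969) and PROSER2-AS1 (0.965). The last is an antisense gene that shares 31 of its 3274 exon bases with PROSER2 on the opposite strand. TSC22D3 was matched most closely by SARS1 (0.941), MARS1 (0.922) and MTHFD2 (0.918). The first is a seryl-tRNA synthetase, the second a methionyl-tRNA synthetase and the last a mitochondrial folate enzyme. TSC22D3 stood far above its other libraries only in iLuc replicates 1 and 2 (42.0 and 34.7 CPM), so its coefficients lean on these libraries. SARS1 held 480 ± 266 CPM in iLuc. SGK1 was matched by HERC3 (0.932), RDH10 (0.929) and P4HA3 (0.927), with HERC3 counts uncertain because another annotated entry shares its exons. ZBTB16 was matched by ITGA7 (0.911), CRABP1 (0.9) and PKDCC (0.89). The closest genes to PER1 (DZIP3, 0.867) and FKBP5 (MMS19, 0.817) were less similar. The libraries share groups, sets and depth, so these coefficients describe the ranking only.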

How the data were processed

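Transcript levels were measured by paired-end RNA-seq of A673 cells in 21 libraries, 7 groups of 3. STAR was used by the authors for alignment (hg19), and the deposited raw count per Ensembl gene came from htseq-count, run as intersection-strict. Neither annotation release nor strand setting is given in the sources used here. The authors also deposited values adjusted for replicate set with ComBat, a signal on the scale of counts. The table of the authors' own fold changes and p-values was not used. Groups came from sample titles. The 3 mut9d columns were taken to be DAF-mut9.

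Raw counts were fitted in R 4.3.3 with edgeR 4.0.16 (TMM, quasi-likelihood test, terms for group and replicate set, all 21 libraries). Genes averaging 1 count or more over the libraries entered the test (30549 of 57820), and p-values were Benjamini-Hochberg adjusted over all of them, with calls below 0.05. The replicate set was a term because the study adjusted for it. Deviations of same-numbered libraries had a median correlation of 0.158 (-0.126 to 0.541), against -0.091 for different numbers. Nothing states separate cultures beyond replicate sets, so p-values measure the spread between these libraries. Replicate pairs differed beyond sampling noise (chi-square per degree of freedom of 13.5 to 109). The highest values were in iLuc (39 to 109) and iEF (62.3 to 86.2), and the highest elsewhere was 55.4 in del22. The fit used 1 estimate of spread per gene for all 7 groups. Library totals were 32.9 to 46.2 M counts.

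The 7 members and the gene lists were chosen with earlier results of these data known. Of 126 list genes 125 were matched. Genes that could be named were the members, FLI1, from each list up to 3 genes each way in endo-EF and 2 in other conditions (called, mean of at least 5 CPM, by size), and the 3 genes most like each member. Not every gene that met this rule is named in the text. ABCB1 (mean 1.97 CPM) is named outside the rule. DUSP1, MT2A, TNFAIP3, NFKBIA, HSP90AA1, HSP90AB1, HSD11B1, HSD11B2 and CD99 were added after their values were seen. The scripts were tested on simulated data. Alternatives were DESeq2 1.42.0, limma 3.58.1 on log2 CPM of the ComBat values (prior count 2), no replicate block, RLE scaling, other low-count filters, fits of only the groups compared and leaving out each library. Leaving out replicate set 3 was added after seeing the data. Gene places are from GENCODE lifted to GRCh37, the assembly called hg19 by the authors, and promoter sequences from RefSeq (GRCh38.p14 table).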

Additional observations from a re-analysis of the deposited data

How the results depend on the processing

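Over 1408 tested log2 fold changes of single members under the alternatives, 1355 kept their side of the threshold, 38 calls were lost, 15 were gained and no called value turned its direction, while 106 uncalled values changed sign. Untested KLF15 values turned sign for mut9 against iEF, to 0.203 without replicate set 3 and 0.047 without iEF replicate 3, and for DAF-mut9 against del22, to -0.072 without DAF-mut9 replicate 3. With no replicate block in place of the block, the induced targets called fell from 7 to 4 in DAF-mut9 and from 8 to 4 in del22, and the members called in mut9 against WT-EF from 2 to 1. The block changed no other count of calls beyond 1.5 times. With no low-count filter, induced targets called were 19 in DAF, 14 in DAF-mut9 and 17 in del22, members called were 2 in del22 and 2 in DAF against mut9, and the interaction called 1 member. The filterByExpr filter gave 5 induced targets in del22 and 1 member in mut9 against WT-EF. ComBat-adjusted values with limma gave 7 induced targets in DAF, 4 in DAF-mut9 and 4 in del22, and 1 member in WT-EF against iLuc and in DAF-mut9 against mut9. That table as used here held rows for 31 of the 35 induced and 2 of the 10 repressed targets. The fit of only the groups compared gave 2 members for the interaction. Without replicate set 3, members called were 0 in DAF-mut9 and 0 in del22, and induced targets 4 in del22. The cause of these shifts was not tested. Without each library in turn, KLF15 ran from -0.914 to 0.047 in mut9 and from -0.072 to 0.267 in DAF-mut9 against del22, members called were 0 to 1 in DAF-mut9, del22 and DAF against mut9, 1 to 2 in WT-EF against iLuc, 0 to 1 in mut9 against WT-EF, 2 to 3 in DAF and del22 against WT-EF, and 0 to 1 for the interaction, and induced targets called were 15 to 20 in mut9, 6 to 11 in DAF, 1 to 7 in DAF-mut9 and 2 to 8 in del22. The lowest induced counts came without mut9 replicate 2, iEF replicate 3, DAF-mut9 replicate 1 and del22 replicate 3. The 3 libraries per group and KLF15 counts of 16 to 34 in DAF, DAF-mut9 and del22 limit the precision of its values.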

Other observations

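Some partners of PER1 in the circadian clock were called where PER1 was not. Of 12 clock genes tested, 7 were called lower and 1 higher in endo-EF, and 7 lower and 1 higher in WT-EF. Over all genes, 22.4% were called lower in endo-EF and 16.9% in WT-EF, and the counts were not tested against these shares. In mut9 the counts were 6 lower and 1 higher, in DAF 5 lower, in DAF-mut9 2 and in del22 4, beside 8.33%, 4.02%, 2.14% and 1.79% of all genes called lower. BHLHE40, a repressor of clock transcription, held 5.01, 3.82 and 3.06 CPM in iLuc, 86.2, 165 and 94.9 CPM in iEF and 19.4, 24.2 and 14.4 CPM in WT-EF (-4.80 and -2.55 on the log2 scale). The edgeR fit did not call it in mut9 (-0.44), DAF (0.16), DAF-mut9 (-0.22) or del22 (-0.55). ARNTL, which encodes the clock activator BMAL1, was lower in endo-EF (-2.12), WT-EF (-1.73) and mut9 (-1.23). PER2 gave another pattern. It held 15.8, 12.6 and 15.3 CPM in iLuc and 11.6, 9.13 and 18.5 CPM in iEF, and endo-EF did not call it (0.18, adjusted p = 0.472), while all 5 rescue groups were called lower than iEF, from -0.72 in WT-EF to -1.27 in DAF. The WT-EF call was lost without iEF replicate 3, and the DAF-mut9 call (-0.95) without iEF replicate 3 or DAF-mut9 replicate 1. Its 15 libraries in the rescue groups lay between 4.37 and 8.77 CPM, below all iLuc and iEF libraries. Without replicate set 3, the clock genes called lower were 6, 7, 6, 4, 1 and 2 in the 6 conditions.

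Of 14 paralogs of the members, 8 were called lower and 1 higher in endo-EF and 9 lower in WT-EF. In mut9 4 were called lower, 1 higher and 9 not called. The shares of all genes called lower in these conditions are 22.4%, 16.9% and 8.33%, and no difference from them was tested. KLF9 held 8.91, 11.9 and 1.10 CPM in iLuc and 20.1, 79.0 and 20.8 CPM in iEF and was lower in endo-EF (-2.38, adjusted p = 0.000111). TSC22D1 was likewise lower in endo-EF (-2.63, adjusted p = 3.54e-11), where TSC22D3 was higher.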
